A study of Homo sapiens with 3 samples.

Results

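The genes described here encode the machinery of autophagy and of the mTOR pathway that controls it, and their RNA levels were measured in HEK293 cells. The list names 54 genes, taken by symbol from a count table with 17595 genes. A row under the symbol itself was found for 53 of them. ATG101 has no row under that name and was read from the row C12orf44, its older symbol in the RefSeq gene table, so values for all 54 are given. HEK293 is an established human embryonic kidney line. Its cells were grown in DMEM with glutamine and fetal calf serum and the labels name no treatment, so there is 1 group and no second condition to compare. In each of the 3 libraries 1000 cells were lysed with spiked control RNA, a share equal to 100 cells was amplified for 18 cycles, and only the fragments from the 5′ ends of RNAs were sequenced.

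Autophagy is the process by which a cell encloses part of its cytoplasm in a double membrane, the autophagosome, and delivers it to lysosomes for breakdown. The ULK kinase complex starts it, a class III phosphatidylinositol 3-kinase complex marks the forming membrane, and a conjugation system attaches ubiquitin-like proteins of the ATG8 family to the membrane lipid phosphatidylethanolamine. Nutrients hold the process back through mTORC1, a kinase complex that RAG GTPases bring to the lysosome and RHEB switches on. The kinase AMPK, which senses low energy, acts against mTORC1 and in favour of ULK1.

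Total counts ran from 1384172 to 1601555 per library, of which spikes took 3.49% to 3.85%. The libraries are called 20, 21 and 23 after the index in their column headings. Levels are counts per 1000000 endogenous counts (CPM), given as mean ± SD over the 3 libraries, and 1 count equals 0.647 to 0.751 CPM. Each RNA gives its tag at the 5′ end, so counts were not divided by transcript length. The labels do not tell if separate cultures were used, so the p-values below rest on a spread between libraries that may be technical alone. Of 6 genes read as HEK293 markers (NEFM, NEFL, PAX2, CDH2, VIM and STMN1), 5 averaged at least 10 CPM. The summed level of the 6 was 1064 to 1098 CPM, and the part of each in that sum is not given here. None of the markers of blood, endothelium, fibroblasts and hepatocytes reached 10 CPM, and among those without a row were PTPRC, PECAM1, COL1A2 and ALB.

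Nearly every member was counted in each library, most members at moderate levels and a few far above the rest. Of the 54 genes, 53 had a count in every library, where 72.6% of all genes with a row and 85.8% of protein-coding genes did. An average of at least 10 CPM was reached by 42 members (77.8%), against 44.6% of all genes with a row and 57.7% of the protein-coding ones. At least 100 CPM was reached by 8 members (14.8%), against 9.91% and 13.0%. The median over members was 25.9 ± 1.60 CPM (SD, n = 3), compared with 6.89 ± 0.20 CPM over all genes with a row and 14.0 ± 0.78 CPM over protein-coding genes. Rows exist only for genes with at least 1 count, so these backgrounds leave out silent genes. All members together took 0.304% ± 0.0083 of endogenous counts, which is 3042 ± 83.4 CPM. The 3 members with the most counts made up 30.7% of the member counts and the top 10 made up 63.2%.

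**Figure D1:**
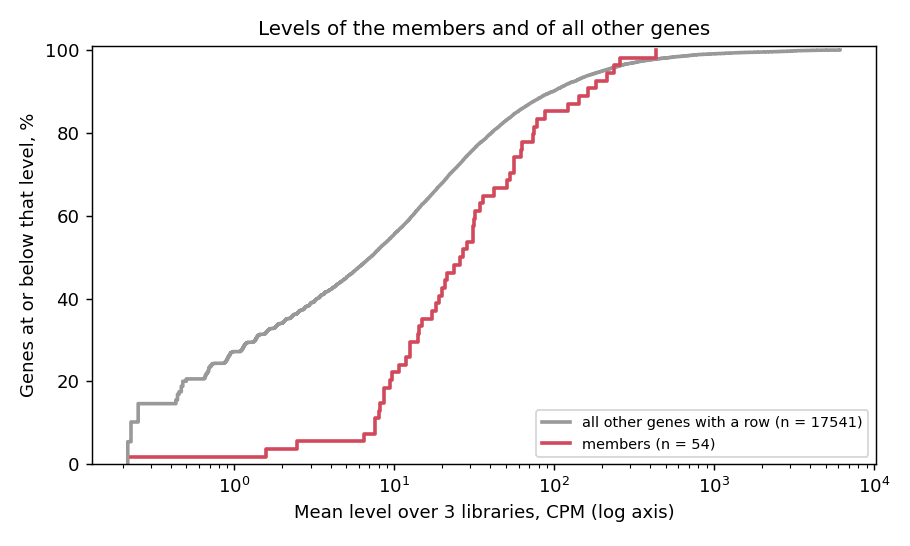
Cumulative share of genes (vertical axis, %) at or below a mean level (horizontal axis, CPM, log scale) for the 54 members and for all other genes with a row. The member curve lies to the right of the other curve over most of the range, with medians over the libraries of 25.9 CPM for members and 6.89 CPM for all genes with a row.

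The 8 members above 100 CPM come from 6 different functions. In descending order they were EIF4EBP1, GABARAPL2, GABARAP, RHEB, ATG3, MAP1LC3B, SQSTM1 and MLST8. EIF4EBP1, which encodes 4E-BP1, a repressor of cap-dependent translation that mTORC1 inactivates by phosphorylation, stood first with 442, 454 and 411 CPM in libraries 20, 21 and 23 and ranked 382nd of 17595 genes. Scaled to the spikes, which were added at 20000 molecules per cell, its level equals 228 ± 1.57 molecules per cell (SD, n = 3), if cellular RNAs and spikes are captured alike. At the other end were MAP1LC3A with 1 count in all, ULK2 with 7 counts and OPTN with 11. When all members are put in order of their means, neighbours differed without overlap of their libraries in 7 of 53 steps, so the exact order in the middle of the list is not resolved. EIF4EBP1 over GABARAPL2, RHEB over ATG3 and each step from MAP1LC3B down to TAX1BP1 were among the steps without overlap. Lack of overlap concerns the spread between libraries and does not cover differences in capture between RNAs, so these steps order counts and not RNA amounts.

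**Figure D2:**
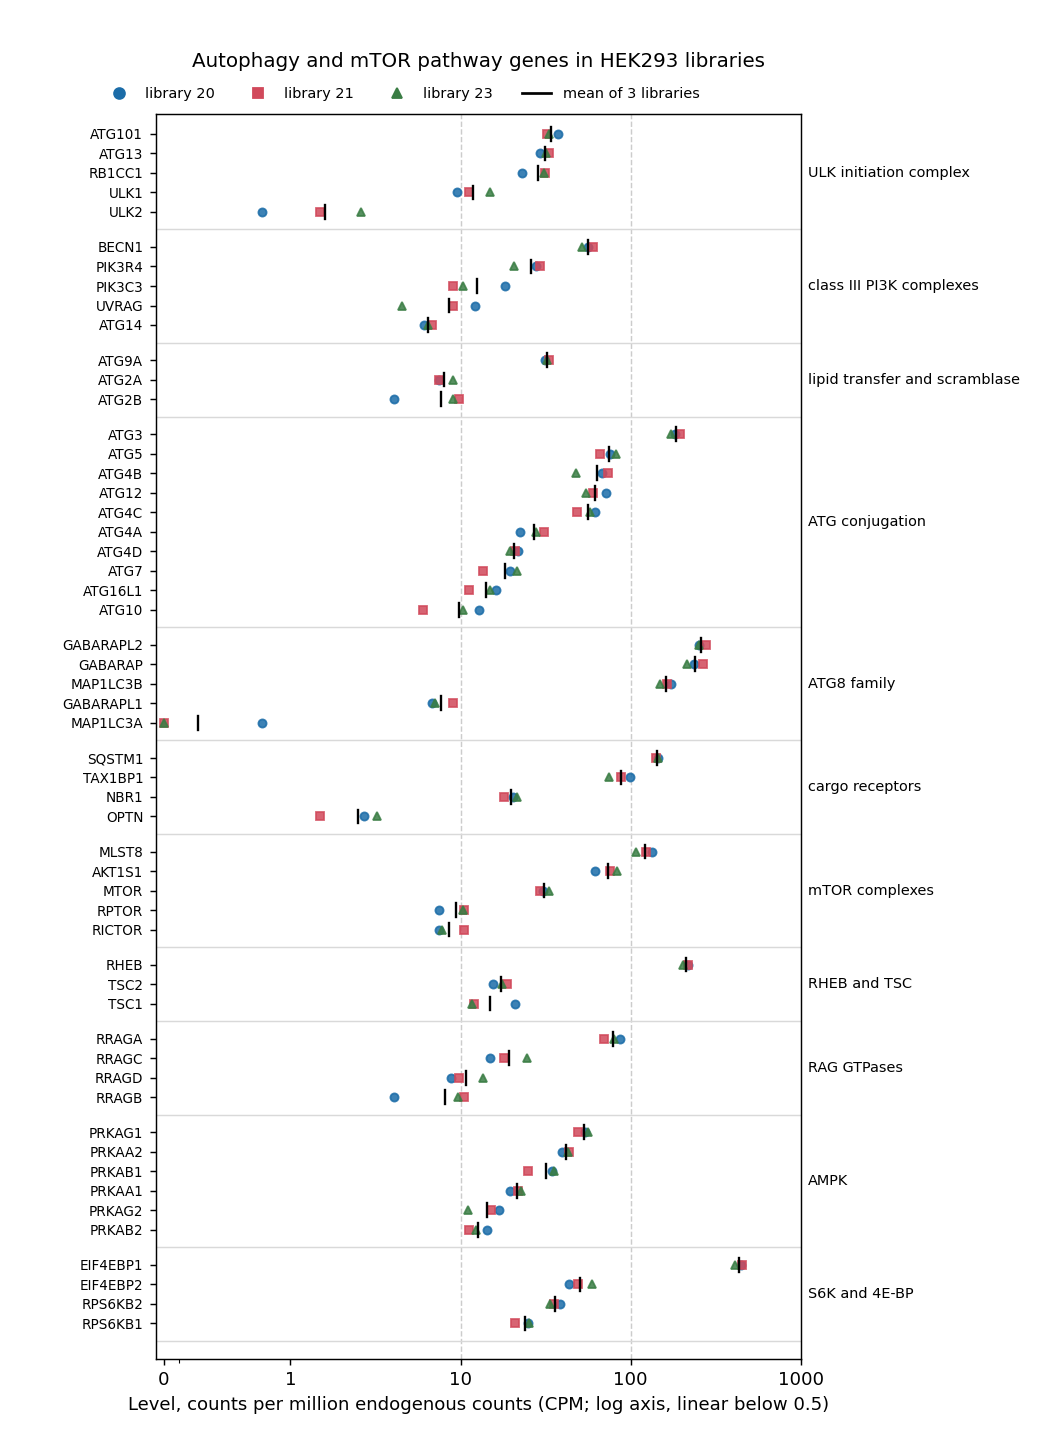
Level of each member in each library (horizontal axis, CPM, log scale that turns linear below 0.5) with members grouped by role. Symbols are the 3 libraries, black ticks their mean, and dashed lines mark 10 and 100 CPM; 8 members lie above 100 CPM, and MAP1LC3A lies at 0 in libraries 21 and 23.

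Which paralog or subunit leads was asked through 34 ratios between members, each taken within a library as the log2 of counts with 0.5 added per side. Of these, 26 passed limma's moderated one-sample test at an adjusted p of 0.05 (2-sided, Benjamini-Hochberg over the 34 ratios), 23 of them higher on the first side and 3 on the second. Over 33 spikes, counts divided by the nominal amount added varied with an SD of 0.66 on the log2 scale, and a ratio between 2 RNAs that vary independently would carry a spread of 0.93. Of the passing ratios, RPS6KB1 over RPS6KB2 and RRAGC over RRAGD were smaller than that, and PRKAA1 over PRKAA2 was close to it in size. That spread is an SD and not a limit, so passing ratios somewhat above it lie within its reach too. Among them were PIK3C3 over PIK3R4 (-1.08), ATG4B over ATG4A (1.20) and PRKAB1 over PRKAB2 (1.29). The limma p-values rest on the spread between libraries and do not cover this spread between RNAs.

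**Figure D3:**
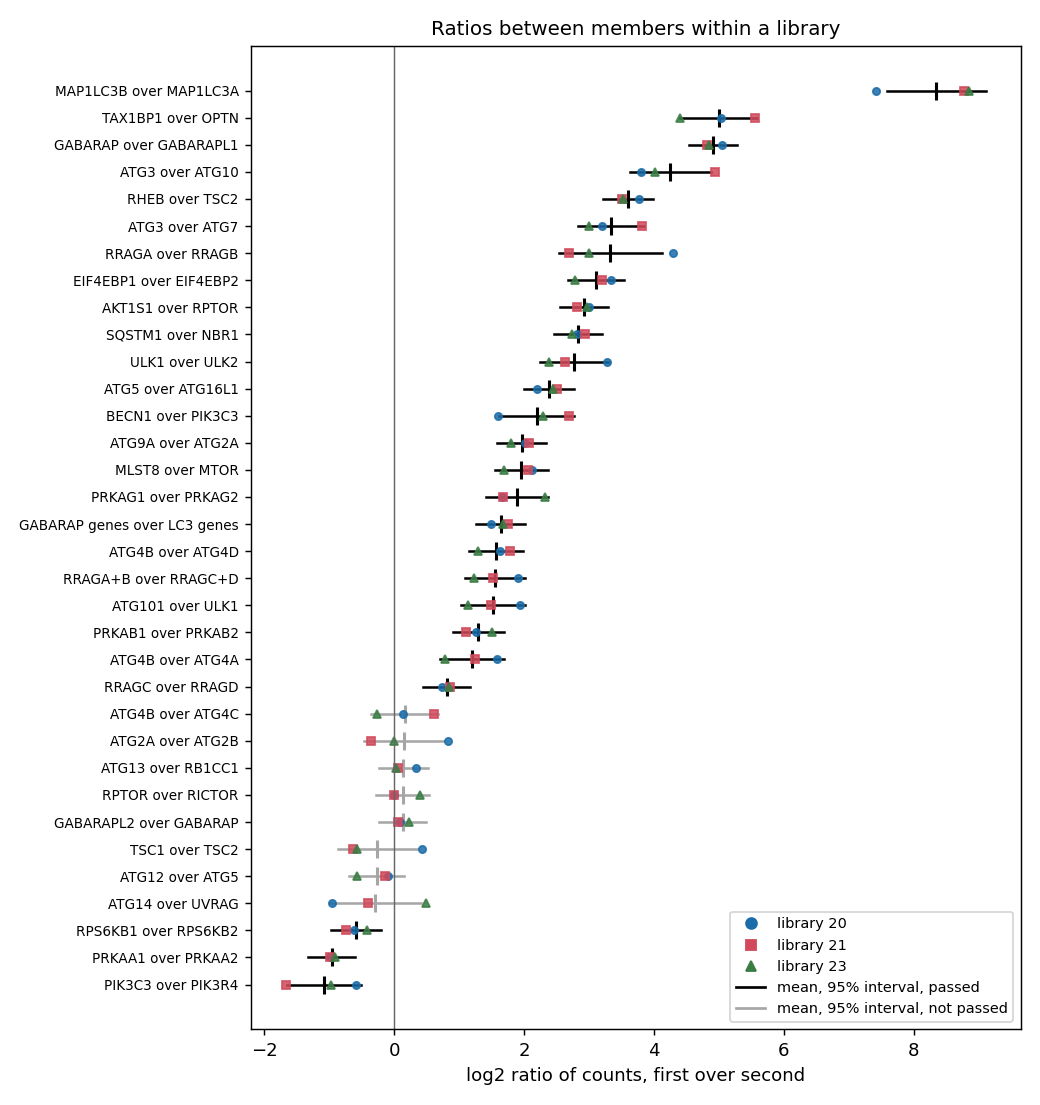
Log2 ratio of counts between members (horizontal axis) for the 34 ratios, with coloured symbols for the 3 libraries and lines for the mean and its 95% interval from limma's moderated variance. Black lines mark the 26 ratios that passed and grey lines the 8 that did not; MAP1LC3B over MAP1LC3A lies farthest to the right, where the second side has 1 count.

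In the initiation complex the scaffold and adaptor genes had higher counts than the kinase genes. ULK1 and ULK2 encode alternative protein kinases that start autophagy. ULK1 had 9.49, 11.3 and 14.9 CPM in libraries 20, 21 and 23, and ULK2 had 0.678, 1.50 and 2.59 CPM. Every ULK1 value lay above every ULK2 value, and the log2 ratio was 2.76 ± 0.46 (SD, n = 3; limma adjusted p = 4.7e-05), a 6.79-fold difference. ATG13, an adaptor of the complex, averaged 31.3 ± 1.99 CPM. RB1CC1, which encodes the scaffold FIP200, averaged 28.6 ± 4.78 CPM, and ATG101, which stabilises ATG13, 34.2 ± 2.69 CPM. The lowest value of these 3 genes, 23.0 CPM for RB1CC1 in library 20, lay above the highest of ULK1. ATG101 exceeded ULK1 by 1.52 ± 0.40 on the log2 scale (limma adjusted p = 0.00048). ATG13 and RB1CC1 were not tested against ULK1. Between ATG13 and RB1CC1 the difference did not pass the threshold (0.14 ± 0.17, 95% interval -0.24 to 0.53, limma adjusted p = 0.45). Taken as molecules per cell by the spikes, ULK1 stood at 6.26 ± 1.74 and ATG13 at 16.4 ± 1.21.

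Among the class III phosphatidylinositol 3-kinase genes BECN1 led. BECN1, which encodes the regulatory subunit Beclin 1, had 56.2, 60.1 and 51.8 CPM, while PIK3C3, the catalytic subunit VPS34, had 18.3, 9.02 and 10.4 CPM. These groups of values do not overlap, and BECN1 exceeded PIK3C3 by 2.19 ± 0.55 on the log2 scale (limma adjusted p = 0.00019). PIK3R4, which encodes the pseudokinase VPS15 that binds the catalytic subunit, averaged 25.9 ± 4.59 CPM and lay above PIK3C3, with PIK3C3 over PIK3R4 at -1.08 ± 0.54 (limma adjusted p = 0.0052). Without library 23 these ratios were 2.14 and -1.13, and both calls missed the threshold (limma adjusted p = 0.061 and 0.16). ATG14 and UVRAG encode the subunits that define the complex of autophagosome formation and the complex of endosomes. Both were low, at 6.44 ± 0.33 and 8.58 ± 3.85 CPM, and their ratio did not pass (-0.29 ± 0.73, 95% interval -0.99 to 0.41, limma adjusted p = 0.41).

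The membrane-supply genes were low apart from ATG9A. ATG9A encodes the lipid scramblase carried on vesicles to the growing membrane and averaged 32.2 ± 0.96 CPM. ATG2A and ATG2B, which encode the tube-like lipid transfer proteins, averaged 8.01 ± 0.91 and 7.63 ± 3.11 CPM. ATG9A exceeded ATG2A by 1.97 ± 0.15 on the log2 scale (limma adjusted p = 4.7e-05), whereas ATG2A over ATG2B was 0.15 ± 0.61 (95% interval -0.46 to 0.77, limma adjusted p = 0.56).

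The conjugation genes took 17.4% ± 0.45 of the member counts, led by the E2-like enzyme ATG3. ATG3, which transfers ATG8 proteins to the lipid, had 183, 196 and 172 CPM in the 3 libraries. The E1-like enzyme ATG7, which activates both ATG8 and ATG12, had 19.7, 13.5 and 21.4 CPM, and ATG10, the E2-like enzyme for ATG12, had 12.9, 6.01 and 10.4 CPM. ATG3 lay far above both in every library, by log2 ratios of 3.34 ± 0.43 over ATG7 and 4.25 ± 0.61 over ATG10 (limma adjusted p = 1.6e-05 and 1.5e-05). In the complex that acts as the E3 enzyme, ATG5 averaged 74.7 ± 8.09 CPM, ATG12 62.1 ± 8.26 CPM and ATG16L1, which places the complex on the membrane, 14.1 ± 2.58 CPM. ATG5 exceeded ATG16L1 by 2.38 ± 0.16 (limma adjusted p = 2.0e-05), a 5.22-fold difference. ATG12, the ubiquitin-like partner of ATG5, did not differ from it past the threshold (-0.27 ± 0.27, 95% interval -0.69 to 0.15, limma adjusted p = 0.21).

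The ATG4 genes encode the proteases that expose the terminal glycine of ATG8 proteins and later release them from the lipid. ATG4B averaged 63.1 ± 13.5 CPM and ATG4C 55.8 ± 6.96 CPM, and ATG4A and ATG4D lay lower, at 27.0 ± 4.28 and 20.7 ± 1.17 CPM. ATG4B exceeded ATG4A by 1.20 ± 0.41 on the log2 scale and ATG4D by 1.57 ± 0.26 (limma adjusted p = 0.0015 and 0.00019), but over ATG4C its ratio was 0.16 ± 0.44 (95% interval -0.35 to 0.67, limma adjusted p = 0.48).

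The ATG8 family held the most counts of any role, 22.0% ± 1.01 of those of all members, and 3 of its 5 genes supplied nearly all of them. ATG8 proteins coat the autophagosome and bind receptors that carry cargo. GABARAPL2 had 251, 277 and 253 CPM, GABARAP had 235, 265 and 215 CPM, and MAP1LC3B, the usual marker of autophagosomes, had 173, 164 and 149 CPM. GABARAPL2 and GABARAP were highest in library 21 and MAP1LC3B in library 20, and both GABARAPL2 and GABARAP lay above MAP1LC3B in every library. GABARAPL1 stayed at 7.64 ± 1.21 CPM, below GABARAP by 4.91 ± 0.12 on the log2 scale (limma adjusted p = 2.6e-06) and below it in each library. MAP1LC3A had 1 count in library 20 and none in the other two. Pooled over the libraries, MAP1LC3B had 704 times its count, with an exact binomial 95% interval of 126 to 27846 that covers counting error only. Summed over subfamilies, the GABARAP genes exceeded the LC3 genes by 1.64 ± 0.13 on the log2 scale, 3.11-fold (limma adjusted p = 0.00011). GABARAPL2 and GABARAP did not differ past the threshold (0.13 ± 0.094, 95% interval -0.24 to 0.49, limma adjusted p = 0.46).

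Cargo receptors link ubiquitin-tagged material to ATG8 proteins, and SQSTM1 led them. SQSTM1, which encodes p62, had 144, 141 and 145 CPM, while NBR1, a receptor of related build, had 20.3, 18.0 and 21.4 CPM. The log2 ratio was 2.83 ± 0.098 (limma adjusted p = 9.8e-06). TAX1BP1 averaged 87.3 ± 11.95 CPM and OPTN 2.48 ± 0.89 CPM, with TAX1BP1 higher by 4.99 ± 0.58 (limma adjusted p = 9.2e-06). OPTN rested on 4, 2 and 5 counts in libraries 20, 21 and 23, and the pooled ratio of 34.5 had an exact binomial 95% interval of 19.0 to 69.6.

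The mTOR complexes share the kinase MTOR and its partner MLST8, and RPTOR defines mTORC1 as RICTOR defines mTORC2. MTOR had 30.5, 29.3 and 33.0 CPM, or 16.2 ± 1.83 molecules per cell by the spikes. MLST8, which encodes a small propeller protein bound to the kinase domain, had 134, 123 and 107 CPM. It exceeded MTOR by 1.96 ± 0.23 on the log2 scale (limma adjusted p = 6.7e-05). The complex-defining subunits were the lowest of the set, RPTOR at 9.44 ± 1.72 CPM and RICTOR at 8.58 ± 1.69 CPM, and their ratio did not pass (0.13 ± 0.23, 95% interval -0.27 to 0.54, limma adjusted p = 0.48). AKT1S1, which encodes PRAS40, an inhibitor bound to RPTOR, averaged 73.5 ± 10.8 CPM and exceeded RPTOR by 2.92 ± 0.099 (limma adjusted p = 9.8e-06), a 7.57-fold difference.

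RNA of RHEB, the GTPase that activates mTORC1, far outnumbered that of TSC1 and TSC2, which encode subunits of the complex that turns it off. RHEB had 218, 218 and 203 CPM, whereas TSC2, whose protein is the GTPase-activating subunit, had 15.6, 18.8 and 17.5 CPM. The log2 ratio was 3.60 ± 0.15 (limma adjusted p = 5.9e-06), a 12.1-fold difference seen in 3 of 3 libraries. TSC1, which stabilises TSC2, had 21.0, 12.02 and 11.6 CPM in libraries 20, 21 and 23. Its highest value was in library 20, but no pair of libraries passed the exact binomial test (lowest adjusted p = 0.83). TSC1 over TSC2 was -0.26 ± 0.59 and did not pass (95% interval -0.87 to 0.35, limma adjusted p = 0.41), while without library 20 it was -0.60 (limma adjusted p = 0.024).

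RAG GTPases work as pairs of RRAGA or RRAGB with RRAGC or RRAGD, and RRAGA had the highest mean of the 4. RRAGA had 86.1, 69.9 and 80.2 CPM and RRAGB 4.07, 10.5 and 9.71 CPM. The log2 ratio was 3.33 ± 0.85 (limma adjusted p = 0.00013). Without library 23 it was 3.49, and the call missed the threshold (limma adjusted p = 0.053). RRAGC averaged 19.2 ± 4.94 CPM and exceeded RRAGD, at 10.7 ± 2.53 CPM, by 0.81 ± 0.066 (limma adjusted p = 0.0023). The RRAGA and RRAGB counts together exceeded those of their partners RRAGC and RRAGD by 1.55 ± 0.34, which is 2.93-fold (limma adjusted p = 0.00032).

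AMPK is a trimer of a catalytic α, a scaffolding β and a nucleotide-binding γ subunit, and all 6 genes averaged above 10 CPM. For the catalytic subunit PRKAA2 was the higher form, with 39.3, 43.6 and 42.7 CPM against 19.7, 21.8 and 22.6 CPM for PRKAA1. PRKAA1 over PRKAA2 was -0.96 ± 0.047 on the log2 scale (limma adjusted p = 0.0010) and negative in all 3 libraries. For the other subunits the first form led, PRKAB1 over PRKAB2 by 1.29 ± 0.20 and PRKAG1 over PRKAG2 by 1.89 ± 0.38 (limma adjusted p = 0.00037 and 0.00016). PRKAG1 had the highest mean of the 6, at 53.1 ± 3.84 CPM, and its lead over PRKAA2 was not tested.

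Of the direct substrates of mTORC1, both translation repressors lay above both S6 kinases in every library, a comparison that was not tested. EIF4EBP1, given above, exceeded EIF4EBP2, at 43.4, 48.8 and 59.5 CPM, by 3.11 ± 0.29 on the log2 scale (limma adjusted p = 1.3e-05), 8.63-fold. RPS6KB2, which encodes the kinase S6K2, averaged 35.9 ± 2.53 CPM and RPS6KB1, which encodes S6K1, 23.8 ± 2.38 CPM. RPS6KB1 over RPS6KB2 was -0.59 ± 0.17 (limma adjusted p = 0.013). Without library 21 it was -0.51, and the call missed the threshold (limma adjusted p = 0.14).

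Members with shorter transcripts had the higher median level. By the longest protein-coding transcript in GENCODE v29, the 27 members up to the median length of 3580.5 bases had a median of 53.1 CPM and held all 8 members above 100 CPM, and the 27 longer ones had a median of 18.2 CPM. Over 12563 genes with a row and a length, the 6602 up to the same length had a median of 18.4 CPM and the 5961 longer ones 11.8 CPM. Spearman's rho between length and level was -0.46 over the 54 members and -0.16 over all 12563 genes, as a description across genes that share the same 3 libraries. Of the 24 passing ratios between single genes, the gene with the shorter transcript was the higher in 19 and the one with the longer in 5. The part of transcript length in the ratios between members was not tested.

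**Figure D4:**
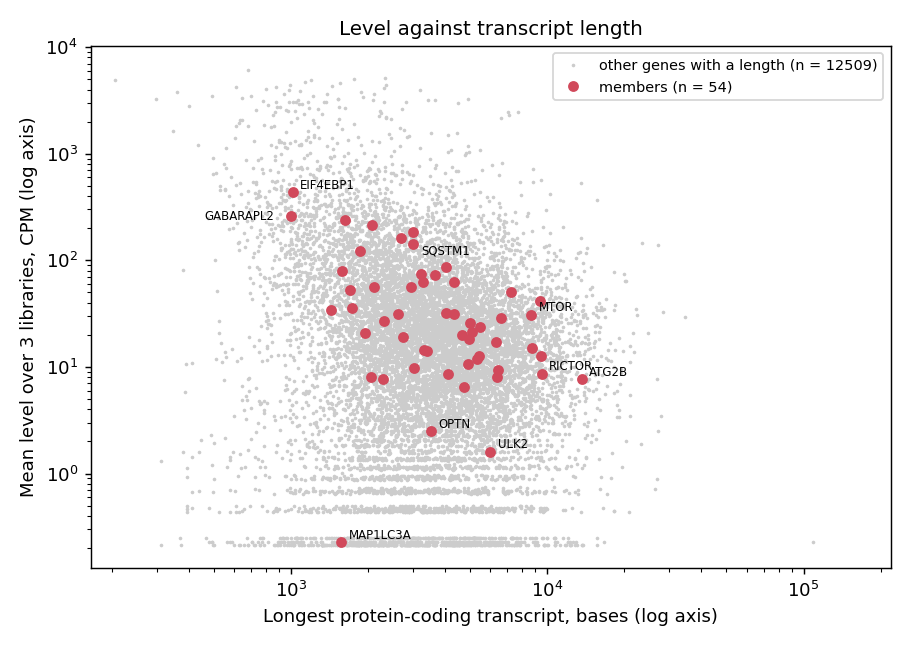
Mean level (vertical axis, CPM, log scale) against the length of the longest protein-coding transcript (horizontal axis, bases, log scale) for the 54 members (red) and other genes with a known length (grey). The 8 members above 100 CPM all lie at or below the median member length of 3580.5 bases, and RICTOR and ATG2B lie at the long and low end.

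Overlapping genes could add to or take from some counts, because the use of strand in counting is not given in the sources used here. In GENCODE v29, 18 members overlap a gene on the opposite strand that has a row of its own. The partner with the highest level was RPS23, a ribosomal protein gene at 3170 CPM, which overlaps ATG10 at 9.75 CPM. PSME3 at 180 CPM overlaps BECN1, AP3S1 at 145 CPM overlaps ATG12, and PRKAG2-AS1 at 21.0 CPM overlaps PRKAG2 at 14.3 CPM. Named pseudogenes exist for 9 members, among them RHEB, MAP1LC3B and EIF4EBP2, and 0 of these pseudogenes have a row under their GENCODE v29 name. Older names of pseudogenes and overlapping genes were not looked up, so rows under such names would be missed.

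The promoters were read for the E-box CACGTG, the core of the sequence that the MiT/TFE transcription factors bind at lysosome and autophagy genes. RefSeq windows (GRCh38.p14) from 250 bases before to 50 after the start were found for 45 members. The motif reads the same on both strands. It was present in 5 of the 45 (11.1%, Wilson 95% interval 4.84% to 23.5%), and in 12.5% of 10282 genes that have both a window and a row, so the share in members was near that of other genes. The longer form TCACGTGA, which contains the shorter, was in 3 members (6.67%) and in 2.13% of the same 10282 genes. The 3 members were ATG3, TSC2 and RRAGB, and the difference in share was not tested. In ATG3 the longer form reaches past the start, so the ATG3 sequence printed below does not hold it. The matches upstream of the start are printed to show where they lie, with the E-box in capitals and 8 bases on each side, 5′ to 3′ on the strand of the gene.
ATG3, chr3:112561967-112561988, minus strand: tctcacgtCACGTGccgggaga
ATG14, chr14:55411838-55411859, minus strand: caaaatccCACGTGactggctc
TSC2, chr16:2047863-2047884, plus strand: ggccccgtCACGTGatgcaagg
RRAGC, chr1:38859871-38859892, minus strand: gattccggCACGTGacggggca
RRAGB, first match, chrX:55717626-55717647, plus strand: gccaaggcCACGTGatgatgac
RRAGB, second match, chrX:55717716-55717737, plus strand: gcggcagtCACGTGacagactc
In ATG3 12 bases separate this motif from the start, in ATG14 15 bases and in TSC2 108 bases. The matches were spread over the range of levels, from ATG14 at 6.44 CPM to ATG3 at 184 CPM. The 5 members with the motif had a median of 17.3 CPM and the other 40 a median of 28.96 CPM. These matches describe sequence only.

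Further genes of the pathway came from a list of 64, of which 62 had a row, 4 of them under an older symbol. Over all genes with a row, 44.6% averaged at least 10 CPM and 9.91% at least 100 CPM, and over protein-coding genes 57.7% and 13.0%. Of the 62 further genes, 42 averaged at least 10 CPM and 6 at least 100 CPM, with a median of 18.3 CPM over the 62. The 6 highest were RPS6, the ribosomal protein phosphorylated by S6 kinases, at 3618 ± 59.4 CPM, the cap-binding complex genes EIF4G1 at 212 ± 7.23 CPM and EIF4E at 205 ± 22.7 CPM, LARP1, a repressor of mRNAs with a 5′ terminal pyrimidine tract, at 154 ± 18.1 CPM, EIF4B at 142 ± 10.0 CPM and SEC13 at 137 ± 3.47 CPM. MAP1LC3C and PRKAG3 had no row. The translation factor 4E-BP1 binds is eIF4E, and the level of EIF4EBP1 was 436 ± 22.3 CPM beside that of EIF4E. Chosen after their values were seen, the MiT/TFE genes stood at 13.5 ± 4.65 CPM for TFE3, 8.17 ± 4.47 CPM for MITF and 0.932 ± 0.81 CPM for TFEB, and MAP1LC3B2, a near-identical copy of MAP1LC3B, had 2 counts.

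No member passed the test between libraries. Of the 52 members with at least 10 pooled counts, 0 differed between any pair of libraries in an exact binomial test fitted on all 11424 such genes (2-sided, with Benjamini-Hochberg adjustment across genes and the 3 pairs), where 0.525% of all genes did. At an unadjusted p under 0.05 it was 6 members (11.5%), against 14.5% of all genes, and a chi-square test called 0 after adjustment and 9 before it. The lowest adjusted p of the exact binomial test among members was 0.45, for ATG4B, which had 67.8, 73.6 and 47.9 CPM in libraries 20, 21 and 23. The other members under an unadjusted 0.05 were GABARAP, TAX1BP1, UVRAG, AKT1S1 and MLST8, and in each of the 6 the pair with the lowest p held library 23. AKT1S1 was highest in library 23 and the other 5 were lowest there. Most pairs hold library 23, and it stood apart over all genes too. Over the 3 pairs the exact binomial test called 60 of all genes after adjustment. It called 33 without library 20, 57 without library 21 and 8 without library 23. Whether members differ from other genes in this was not tested. Members between 10 and 100 CPM had a median coefficient of variation of 12.9%, against 14.1% over all genes in that range, and members above it 6.02% against 5.49%.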

How the data were processed

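The authors deposited 1 table of raw counts per gene and spike for the 3 libraries, with no normalization. The submitters' processing notes name STAR 2.4.0a, cutadapt 1.2.1 and the build hg19 (GRCh37). What counted the reads, with which annotation and strand setting, and whether molecular identifiers were collapsed is not given in the sources used here. The values may therefore be counts of reads or of molecules. Columns carry an index that no label ties to a replicate number.

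From these counts, CPM were computed over endogenous totals of 1330877 to 1545594, so a gene at 10 CPM rests on few counts per library. Ratios between members were tested with limma 3.58.1. Libraries were compared with an exact binomial test (doubled smaller tail) for genes with at least 10 pooled counts. Intervals on counts cover counting error only. Spike amounts, in steps of 2, were written from general knowledge of ERCC mix 1. Lengths and overlaps came by name from GENCODE v29 (GRCh38), and no coordinates were carried to hg19. The members, the lists, the ratios and the rule for named genes (all members by role, the 6 highest related genes and those without a row) were chosen with earlier results of these data known. The methods were tested on simulated counts. Alternatives covered pseudocounts, filters, normalization (edgeR 4.0.16 TMM, DESeq2 1.42.0, spikes), tests and leaving out each library. Python 3.11.15 and R 4.3.3 were used.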

Additional observations from a re-analysis of the deposited data

How the results depend on the processing

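Of the 34 ratios between members, 23 kept their direction and their side of the threshold under every alternative in which they were run, and 5 changed their call when a library was left out, as given with their ratios above (BECN1 over PIK3C3, PIK3C3 over PIK3R4, RRAGA over RRAGB, RPS6KB1 over RPS6KB2 and TSC1 over TSC2). The number passing, 26 as reported, was 23 to 27 when a library was left out, 28 with an exact binomial test on pooled counts, 23 of 30 with at least 30 pooled counts per side (3 of the 23 that held, ULK1 over ULK2, MAP1LC3B over MAP1LC3A and TAX1BP1 over OPTN, had too few counts for it), and 26 with other pseudocounts or a variance trend. With each library left out in turn, ATG14 over UVRAG ranged from -0.68 to 0.045 (positive without library 20), ATG2A over ATG2B from -0.18 (without library 20) to 0.41, ATG4B over ATG4C from -0.065 (without library 21) to 0.37 and RPTOR over RICTOR from 0.0 (without library 23) to 0.20. None of these 4 passed in any fit. The exact binomial test on pooled counts also called ATG5 over ATG12 and GABARAPL2 over GABARAP (adjusted p = 0.027 and 0.047). The fitted log2 ratio of MAP1LC3B over MAP1LC3A depends on the pseudocount, at 10.04 with 0.1 and 6.69 with 2. The share of endogenous counts fell to 0.261% without EIF4EBP1. The 0 members that differed between libraries stayed at 0 in each alternative, with 0 to 9 at an unadjusted p under 0.05 and a lowest adjusted p of 0.20 to 1.0. With ATG101 left out, an alternative chosen after seeing the data, 41 members averaged at least 10 CPM. No paired analysis was possible because there is 1 group and the columns carry no replicate numbers. Depth limits the lowest members most, since 4 members had fewer than 30 pooled counts.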
